A study of Mus musculus with 18 samples.

Results

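The cells described here were scaffold cells that carried Irg1 transcripts together with at least 1 transcript of a partner gene (Niacr1, Il1f9, Csf3r or Csf1). They were chosen by a gate on the UMI counts of a few genes, so the values of those genes are no finding. A cell needed 1 or more Irg1 UMIs (unique molecular identifiers, each counted as 1 captured transcript) and 1 or more UMIs of Niacr1, Il1f9, Csf3r or Csf1. Its S100a8 and S100a9 UMIs, which encode calprotectin, had to stay under 5% of its UMIs, and it had to hold fewer than 3 UMIs of C1qa, C1qb and C1qc together. The gate held 210 of 7082 kept scaffold cells, out of 19761 kept cells in all tissues. Biomaterial scaffolds, lungs and spleens of female BALB/cJ mice had been profiled by Drop-seq, where each cell is caught in a droplet with a barcoded bead. Tumour-bearing mice carried a graft of 2000000 cells of 4T1-tdTomato-luc2, a fluorescent and luminescent derivative of the mouse mammary carcinoma line 4T1, in a mammary fat pad. They were taken 7, 14 or 21 days later, at 9, 10 or 11 weeks of age, and healthy mice of the same strain, days and ages had received no tumour cells. Each tissue, status and day gave 1 library, so 3 tumour-bearing and 3 healthy scaffold libraries were compared, each of another day. The labels do not give the number of mice behind a library, nor the material of the scaffold, and p-values measure the spread between libraries.

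Irg1 (Acod1 in RefSeq, chromosome 14, 103047012 to 103056573 in GRCm38.p6) encodes the enzyme that makes itaconate, a metabolite that activated macrophages and neutrophils form from the citric acid cycle and that restrains inflammatory signalling. The gene is switched on by bacterial products and cytokines, largely through NF-kappaB. Il1f9 encodes interleukin 36 gamma, an alarm cytokine of the interleukin 1 family. Csf1 encodes the growth factor of macrophages and Csf3r the receptor for the growth factor of neutrophils. Niacr1 (Hcar2 in RefSeq) encodes a receptor for niacin and for a ketone body, and Cxcl2 encodes a chemokine that draws neutrophils.

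Of the 5 genes that mark these cells, Irg1, Csf1, Il1f9 and Cxcl2 had a promoter in the RefSeq table (GRCm38.p6), and Niacr1 had none. The 150 bases before each start are shown 5′ to 3′ on the strand of the gene, because NF-kappaB binding sites lie close to the start of many inflammatory genes. Both strands were searched for an NF-kappaB type motif that reads GGG, then any 2 bases, then TTTCC, and matches are in capitals. The windows are chr14:103046862-103047011 (plus strand) for Irg1, chr3:107760470-107760619 (minus strand) for Csf1, chr2:24186326-24186475 (plus strand) for Il1f9 and chr5:90903749-90903898 (plus strand) for Cxcl2.
Irg1: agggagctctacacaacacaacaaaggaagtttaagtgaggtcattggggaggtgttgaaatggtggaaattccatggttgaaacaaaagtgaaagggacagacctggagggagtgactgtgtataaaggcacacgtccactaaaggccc
Csf1: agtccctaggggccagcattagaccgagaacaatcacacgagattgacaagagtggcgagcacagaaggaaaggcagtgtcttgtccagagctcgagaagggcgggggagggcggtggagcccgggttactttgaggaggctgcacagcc
Il1f9: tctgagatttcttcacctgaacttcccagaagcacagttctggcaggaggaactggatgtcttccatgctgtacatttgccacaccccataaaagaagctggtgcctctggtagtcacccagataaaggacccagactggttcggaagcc
Cxcl2: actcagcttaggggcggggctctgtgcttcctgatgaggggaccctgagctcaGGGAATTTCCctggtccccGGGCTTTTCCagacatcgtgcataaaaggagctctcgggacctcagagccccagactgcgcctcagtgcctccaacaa
The Cxcl2 window held 2 matches, on the plus strand, whose first bases lay 97 and 78 bases before the start. The other 3 windows held no match to these letters, which says nothing about the factor. Of 32851 promoters in the table, 304 (0.925%) held the motif in the same window.

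The 6 scaffold tables held 961 to 1932 barcodes and 2068925 to 4530115 UMIs each, whereas the labels give about 1000 amplified pairs of bead and cell for a library. Libraries of day 21 shared many barcodes: 1046 of 7545 distinct barcodes of that day stood in 2 or more libraries. A shared barcode was kept where its UMIs were at least 5 times those of the next library, which removed 579 barcodes from the healthy day 21 scaffold library, against 9 to 307 from the other 5 scaffold libraries. Of the 57 gated cells of that library, 10 carried a barcode also seen elsewhere, and of the 14 gated cells of the tumour-bearing library of day 21 the number was 1. No doublets were removed, so 2 cells under 1 barcode may be among the members. The gated cells had a median of 897 UMIs.

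The gate was a narrow slice of the Irg1-carrying cells. Of 821 kept scaffold cells with an Irg1 UMI, 210 (25.6%) passed, 383 (46.7%) had calprotectin at 5% or more, 66 had 3 or more C1q UMIs and 162 had none of the 4 partner genes. Inside the gate 80 cells had exactly 1 Irg1 UMI and 35 had 2. Calprotectin lay between 4 and 5% in 39 members, and 31 cells just outside had 5 to 6%. C1q UMIs numbered 2 in 8 members, and 2 cells were kept out at exactly 3. Irg1 was rare in cells that should lack it: 2 of 189 fibroblast-marked scaffold cells (1.06%, median 1743 UMIs) had an Irg1 UMI, and 0 of 50 B cell-marked cells did, which allows a share of up to 6%. S100a8 UMIs were found in 20.6% of the same fibroblast-marked cells. Csf1 UMIs were found in 37.0% of them, against 53.8% of gated cells. Free RNA, doublets and transcripts made by the cells themselves cannot be told apart here, so the Csf1 share is no measure of stray RNA. Irg1 was found in 36.6% of calprotectin-high cells, in 3.91% of C1q-high cells and in 3.92% of the remaining cells; these are the Irg1-carrying cells that failed the gate.

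The share of gated cells was higher in the tumour-bearing library at days 7 and 14 and lower at day 21. At day 7 it was 5.55% of 1334 kept cells in the tumour-bearing library (95% exact Clopper-Pearson interval 4.38 to 6.91%), against 3.35% of 747 cells in the healthy library (2.18 to 4.90%). At day 14 it was 3.34% of 779 cells in the tumour-bearing library (2.19 to 4.85%), against 0.857% of 1634 cells in the healthy library (0.469 to 1.43%). At day 21 it was 1.07% of 1309 cells in the tumour-bearing library (0.586 to 1.79%), against 4.46% of 1279 cells in the healthy library (3.39 to 5.74%). The intervals overlapped at day 7 and lay apart at days 14 and 21, in opposite directions. They cover counting error only.

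Over the 3 days the share averaged 3.32 ± 2.24% in tumour-bearing libraries and 2.89 ± 1.84% in healthy libraries (SD, n = 3 each), a difference of 0.431 percentage points. An exact 2-sided permutation test of 3 against 3 libraries gave p = 0.8, where the smallest possible p is 0.1. With the replicate block, sign flips of the 3 day pairs gave an exact p of 1, where the smallest possible is 0.25. Calprotectin-high cells made up 10.9, 17.6 and 43.5% of kept cells in tumour-bearing libraries of days 7, 14 and 21. In healthy libraries they made up 4.69, 0.857 and 11.3%, the lower share on each day, whereas the gated share turned at day 21. With only cells outside the calprotectin-high class as denominator, the difference was 0.923 points (exact permutation p = 0.6). The part of calprotectin in the gated share was not tested. In the tumour-bearing library of day 21, 99 of 127 Irg1-carrying cells (78.0%) fell to the calprotectin limit. Without that limit the shares averaged 9.97% in tumour-bearing and 6.46% in healthy libraries (exact p = 0.4), and with a limit of 2% the difference was -0.088 points. The difference was also negative when cells were thinned to 500 UMIs (-0.303), without day 7 (-0.453) and without day 14 (-0.593), and it was 2.34 points without day 21.

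**Figure D1:**
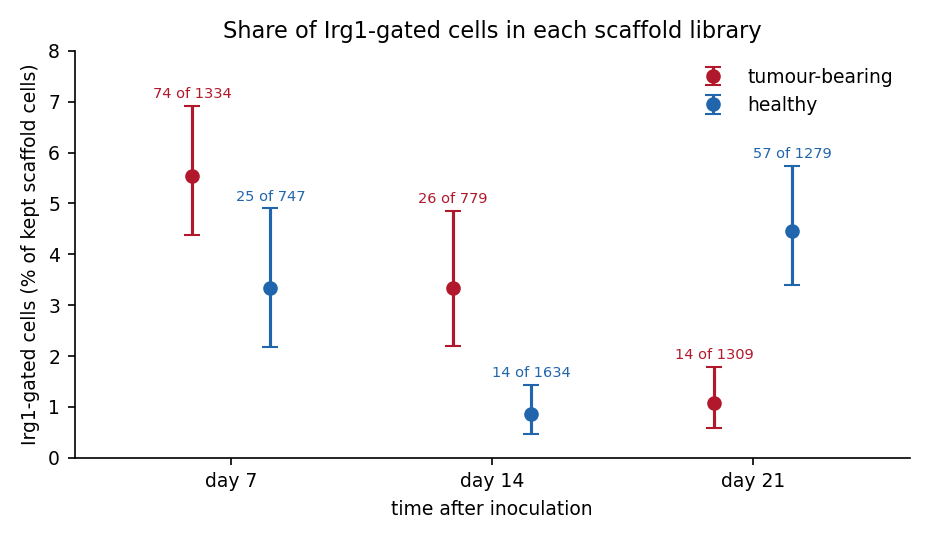
Share of Irg1-gated cells (percent of kept scaffold cells, vertical axis) in each library by day after inoculation. Points are libraries, red for tumour-bearing and blue for healthy, bars are 95% exact binomial intervals, and the numbers give gated of kept cells. The tumour-bearing point is the higher of the pair at days 7 and 14 and the lower at day 21 (1.07% against 4.46%).

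Inflammatory genes that the gate did not use were present, with Cxcl2 in 70% and Il1b in 75.2% of gated cells, but the gate held 2 kinds of cell. They were told apart by 11 neutrophil markers and 9 macrophage markers that the gate did not use, a division made after these values were seen and given without a test. Cells with more neutrophil-marker than macrophage-marker UMIs numbered 138 of 210 (65.7%) and are called neutrophil-marked below. Another 60 (28.6%) had more macrophage-marker UMIs and are called macrophage-marked, and 12 were equal. The neutrophil-marked cells were small, with a median of 771.5 UMIs, and the macrophage-marked cells were large, with a median of 4592 UMIs. The macrophage-marked cells therefore held 73.4% of the UMIs of the gate and the neutrophil-marked cells 23.1%, so sums over the gate are mostly macrophage-marked RNA. Of the neutrophil-marked cells 14 lay within 1 UMI of the division, as did 1 macrophage-marked cell, and 63 neutrophil-marked and 38 macrophage-marked cells had UMIs of both marker sets.

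The kinds entered the gate by different routes. Irg1 of 2 or more UMIs was found in 71.7% of neutrophil-marked and 38.3% of macrophage-marked cells, although the macrophage-marked cells were sampled more deeply. Niacr1 was found in 52.2% of neutrophil-marked and 13.3% of macrophage-marked cells, Il1f9 in 64.5 and 30%, Csf3r in 60.9 and 35%, and Csf1 in 59.4 and 41.7%. Csf1 alone admitted 18 macrophage-marked cells. Its share in all macrophage-marked cells was near that in fibroblast-marked and B cell-marked cells, 37.0 and 30%, and the source of Csf1 in those cells was not tested. A single partner gene admitted 49 of the 60 macrophage-marked cells, against 29 of the 138 neutrophil-marked cells. All 4 partners were present in 20 neutrophil-marked cells and in 0 macrophage-marked cells. The neutrophil-marked share of the gate was 70.3, 46.2 and 71.4% in tumour-bearing libraries of days 7, 14 and 21, against 76, 42.9 and 68.4% in healthy libraries. It averaged 62.6 ± 14.3% in tumour-bearing and 62.4 ± 17.4% in healthy libraries (SD, n = 3 each), so the mixture varied by day within each status and the statuses overlapped.

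**Figure D2:**
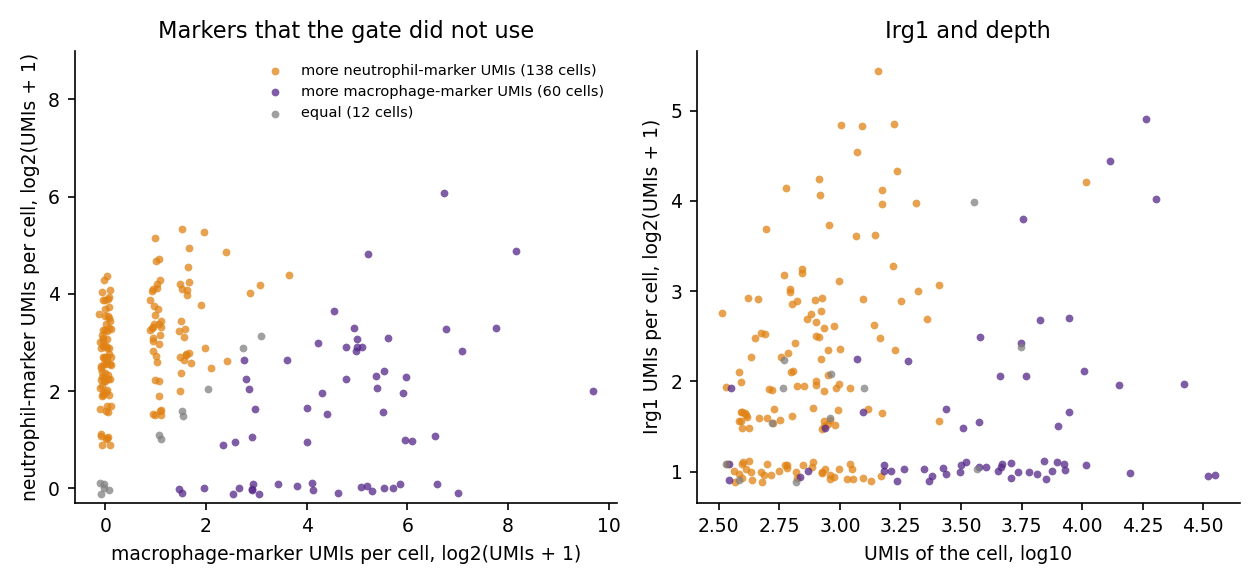
Left, summed UMIs of 9 macrophage markers (horizontal) and 11 neutrophil markers (vertical) in each of the 210 gated cells, both as log2(UMIs + 1) with a small random shift; right, Irg1 UMIs as log2(UMIs + 1) against the cell's total UMIs as log10. Orange points are the 138 neutrophil-marked cells, purple points the 60 macrophage-marked cells and grey points the 12 equal cells; the purple cells lie at greater depth, and most of them hold 1 Irg1 UMI.

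Markers of lymphocytes, stroma and epithelium were at 0 or few UMIs in the gate. All 8 monocyte markers were detected, and their summed level was 616 to 1931 CPM (the gene's share of all UMIs of the summed cells, on the usual counts-per-million scale) in tumour-bearing and 1659 to 2471 CPM in healthy libraries. The B cell genes Cd79a and Ms4a1, the T cell gene Cd3e, the fibroblast genes Dcn, Lum and Pdgfra, the endothelial genes Cdh5, Emcn and Cldn5 and the epithelial genes Krt8, Krt14, Epcam and Cdh1 were at 0 UMIs. Other members of those lists were seen: 2 of 5 B cell markers with 2 UMIs, 5 of 6 T cell markers with 24, 3 of 6 fibroblast markers with 9, 2 of 5 endothelial markers with 4 and 1 of 5 epithelial markers with 1. Of 9 dendritic cell markers 5 were at 0 (Flt3, Zbtb46, Xcr1, Ccr7 and Siglech), and the list summed to 16.7 to 2247 CPM in tumour-bearing and 1076 to 1827 CPM in healthy libraries. All 4 natural killer markers were detected, with 39 UMIs in all. Of the 14 neutrophil markers, 3 of which the gate used, all were detected, as were all 12 macrophage markers. The 9 macrophage markers outside the gate summed to 3556 to 17517 CPM in tumour-bearing and 2862 to 7187 CPM in healthy libraries, and the 11 neutrophil markers to 1902 to 3180 CPM in tumour-bearing and 2276 to 3519 CPM in healthy libraries.

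The gate genes chose the cells, so their levels are descriptions. Irg1 in the gated cells stood at 1951, 1331 and 466 CPM in tumour-bearing libraries of days 7, 14 and 21, against 1407, 852 and 2518 CPM in healthy libraries. The order of the statuses turned at day 21, as it did for the share. In the tumour-bearing library of that day, however, 1 macrophage-marked cell held 58.9% of the gated UMIs and 1 Irg1 UMI, which lowered the CPM. In the neutrophil-marked cells alone Irg1 stood at 5047, 3565 and 2879 CPM in tumour-bearing and 7482, 3951 and 7284 CPM in healthy libraries, so the tumour-bearing library was the lower one on each day while the ranges of the statuses overlapped. In calprotectin-high cells, which are also rich in neutrophil markers, Irg1 stood at 4364, 1228 and 204 CPM in tumour-bearing and 4328, 2592 and 5216 CPM in healthy libraries. The day 21 tumour-bearing library had the lowest level in both kinds of cell.

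Csf1, Il1f9, Niacr1 and Csf3r admitted cells to the gate, so their levels are descriptions too. A single admitting UMI also weighs more in CPM in the small neutrophil-marked cells (median 771.5 UMIs) than in macrophage-marked cells (4592). Csf1, the macrophage growth factor, was found in 59.4% of neutrophil-marked and 41.7% of macrophage-marked cells. In the neutrophil-marked cells it stood at 2215, 3471 and 2378 CPM in tumour-bearing and 3356, 1185 and 3430 CPM in healthy libraries. The macrophage-marked cells had 80, 183 and 115 CPM in tumour-bearing and 48, 209 and 112 CPM in healthy libraries. Il1f9 stood at 2898, 3190 and 2628 CPM in the neutrophil-marked cells of tumour-bearing libraries, against 3906, 5531 and 5088 CPM in healthy libraries. The tumour-bearing library was the lower one on each day, but 11 of the 14 Il1f9 UMIs of the healthy day 14 value came from 1 of 6 cells, and without that cell it was 1405 CPM, below all 3 tumour-bearing libraries. Niacr1 stood there at 1666, 1501 and 375 CPM in tumour-bearing and 1815, 1185 and 2891 CPM in healthy libraries, with the lowest value again in the tumour-bearing library of day 21. Csf3r stood there at 1349, 563 and 1377 CPM in tumour-bearing and 1210, 395 and 1696 CPM in healthy libraries, and the statuses overlapped.

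Cxcl2, which the gate did not use, followed the same division. It was found in 79.7% of neutrophil-marked cells and 46.7% of macrophage-marked cells. Its level in the neutrophil-marked cells was 7212, 19514 and 10513 CPM in tumour-bearing and 11993, 5531 and 22316 CPM in healthy libraries. In the macrophage-marked cells it was 481, 344 and 787 CPM in tumour-bearing and 143, 314 and 610 CPM in healthy libraries. Il1b, which encodes interleukin 1 beta, was found in 94.2% of neutrophil-marked and 33.3% of macrophage-marked cells. It stood at 17372, 6098 and 18899 CPM in the neutrophil-marked cells of tumour-bearing libraries and at 20629, 8692 and 19618 CPM in those of healthy libraries. For both genes the kinds of cell stood apart in every library and the statuses overlapped.

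**Figure D3:**
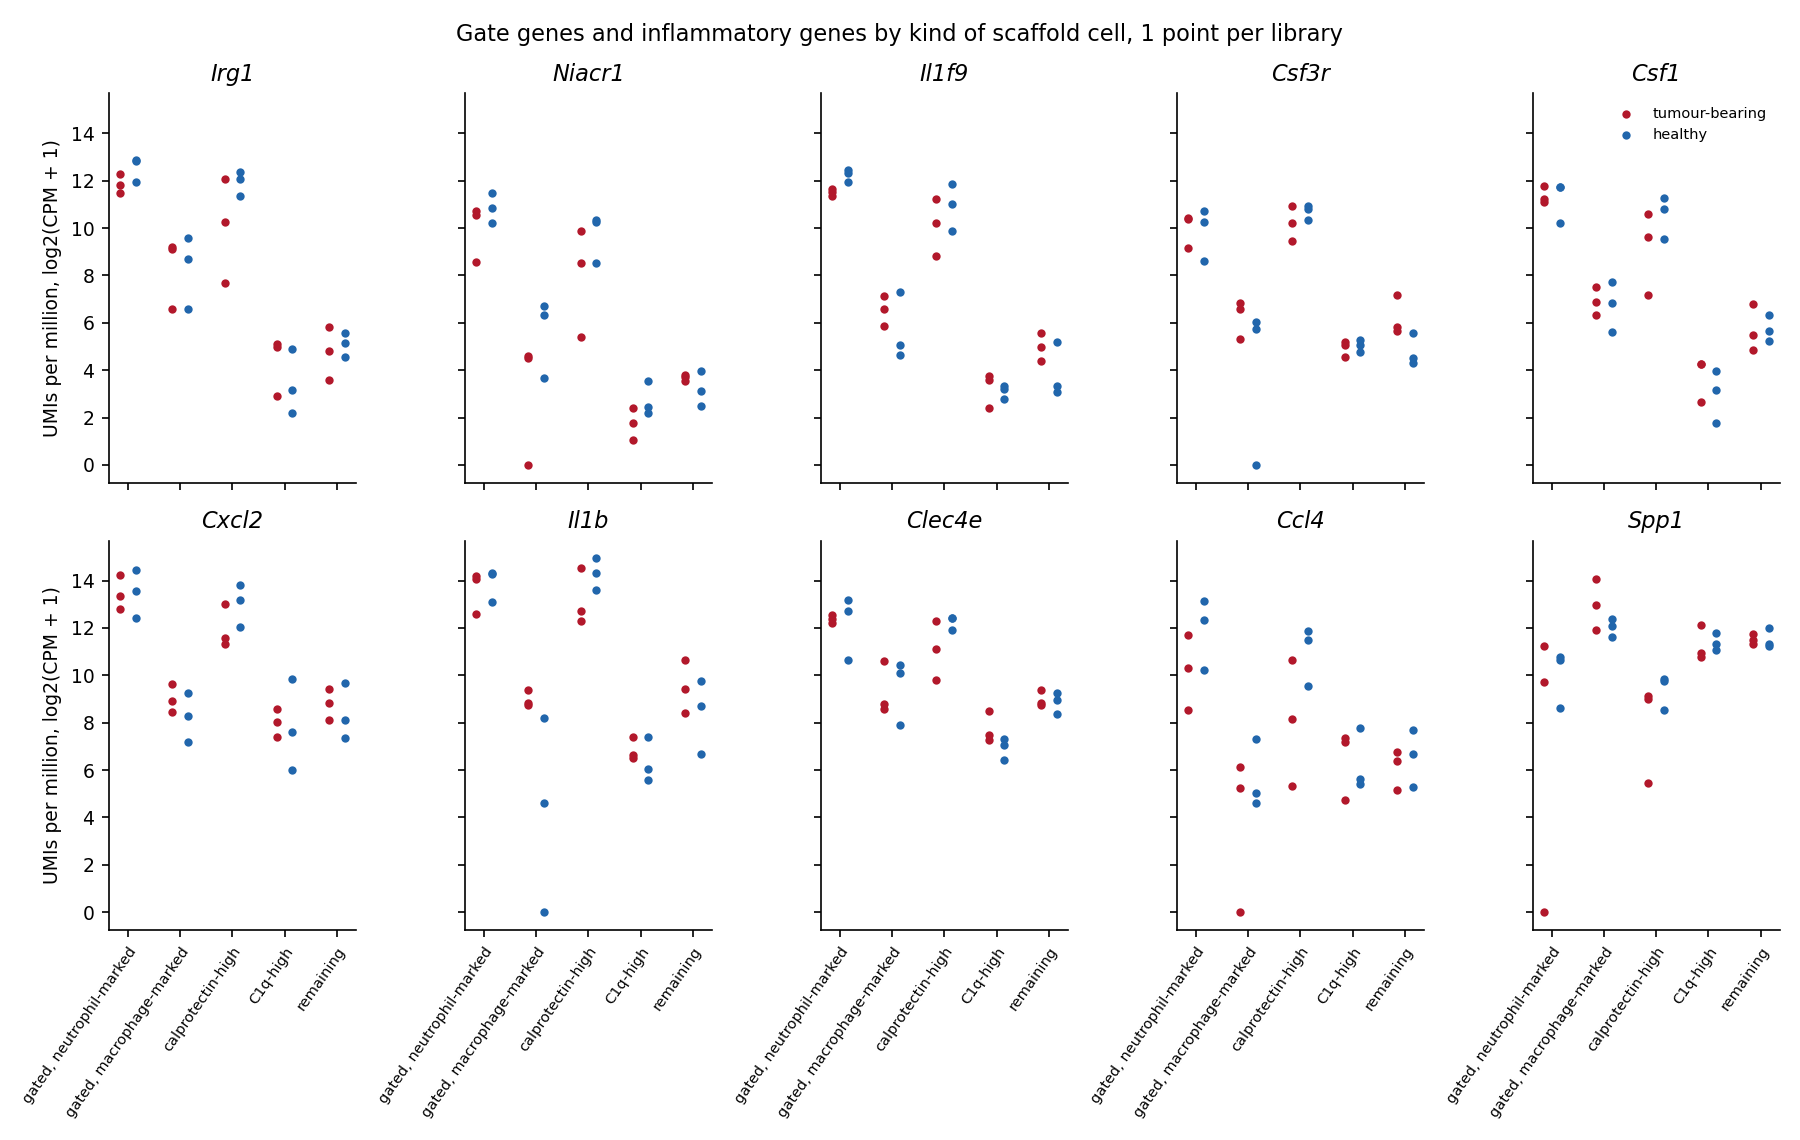
Level of 10 genes as log2(CPM + 1) (vertical) in neutrophil-marked and macrophage-marked gated cells and in calprotectin-high, C1q-high and remaining scaffold cells, 1 point per library, red for tumour-bearing and blue for healthy. Irg1 lies at 2879 to 7482 CPM in neutrophil-marked cells and below 60 CPM in C1q-high and remaining cells, and the 6 points of Spp1 in macrophage-marked cells lie above those in neutrophil-marked and calprotectin-high cells.

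Tumour-bearing and healthy libraries were then compared inside the gate, which asks whether a distant tumour went with a change in these cells. A single gene was called, and its call was lost without the deepest cell of each library. Ccl6, a CC chemokine of myeloid cells (chromosome 11, 83587886 to 83593087), stood at 301, 363 and 167 CPM in tumour-bearing libraries of days 7, 14 and 21, against 2393, 1838 and 1477 CPM in healthy libraries. All 3 tumour-bearing libraries lay below all 3 healthy ones, with 91 UMIs against 435. It fell by 2.80 ± 0.353 on the log2 scale (SE; edgeR quasi-likelihood test with the day as block, Benjamini-Hochberg adjusted p = 0.00708 over 1796 genes). That 1 gene was 0.0557% of those tested, and 63 genes had an unadjusted p under 0.05. With DESeq2 3 genes were called, Ccl6 among them.

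Within the 2 kinds of gated cell Ccl6 was not tested. In macrophage-marked cells it stood at 379, 482 and 154 CPM in tumour-bearing and 2660, 2144 and 2021 CPM in healthy libraries. In neutrophil-marked cells it stood at 117, 0 and 250 CPM in tumour-bearing and 1155, 0 and 655 CPM in healthy libraries, where the 0 of each status is day 14 and the statuses overlapped. Outside the gate the tumour-bearing libraries were also the lower ones in the remaining cells, with 654, 595 and 578 CPM against 812, 1735 and 879 CPM in healthy libraries. Calprotectin-high cells had 547, 264 and 643 CPM in tumour-bearing and 738, 740 and 902 CPM in healthy libraries. In C1q-high cells the statuses overlapped, with 1004, 1296 and 2015 CPM in tumour-bearing and 953, 2389 and 1681 CPM in healthy libraries. Whether the difference in the gated cells exceeded that in the other cells was not tested.

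The call depended on a few deep cells. In the healthy day 7 library 1 cell held 194 of the Ccl6 UMIs, and without the deepest gated cell of each library Ccl6 stood at 329, 499 and 284 CPM in tumour-bearing and 736, 2153 and 1502 CPM in healthy libraries. The groups still did not overlap, but the log2 difference of -1.75 was no longer called (edgeR adjusted p = 0.163), and 0 genes were called, with 55 at an unadjusted p under 0.05; this alternative was added after seeing the data. With cells above 1000 UMIs thinned to 1000 (-2.06, adjusted p = 0.0361), the deepest 1% of barcodes left out of every library (-2.04, adjusted p = 0.0366) or a calprotectin limit of 10% (-2.36, adjusted p = 0.0104), Ccl6 was called. It was not called with a limit of 2%, which left 4 libraries (-2.54, adjusted p = 0.216; 0 genes called, 33 at an unadjusted p under 0.05), nor without any limit (-1.73, adjusted p = 0.413). Over all alternatives its adjusted p ranged from 5.74e-07 to 0.413. The number of genes called was 20 without day 7 and 18 without day 14, against 1 without day 21, and 11 with no calprotectin limit.

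Other genes with small p-values are given as values only. Ctsk, which encodes cathepsin K, a protease that digests collagen, stood at 1048, 2023 and 4512 CPM in tumour-bearing and 371, 134 and 506 CPM in healthy libraries, a log2 difference of 2.69 ± 0.454 (SE; edgeR adjusted p = 0.0611). Groups did not overlap, and most Ctsk UMIs lay in macrophage-marked cells, with 1509, 2637 and 5186 CPM in tumour-bearing and 416, 105 and 706 CPM in healthy libraries. At day 21 of tumour-bearing mice these were 4 cells, 1 of which held 35400 UMIs, 68.0% of theirs and 58.9% of the library's gated sum. Without the deepest cell of each library Ctsk was 569, 617 and 81.1 CPM in tumour-bearing and 548, 127 and 524 CPM in healthy libraries, a log2 difference of -0.07 (adjusted p = 1). In the remaining cells the statuses overlapped, with 1332, 1293 and 1152 CPM in tumour-bearing and 1534, 1340 and 1276 CPM in healthy libraries. Ctsk was called without day 7 (3.41, adjusted p = 2.19e-06) and without day 14 (2.37, adjusted p = 0.00018), and not without day 21 (2.26, adjusted p = 0.115) or when the deepest 1% of barcodes were left out (0.64, adjusted p = 0.998). Ctsl, another lysosomal protease, had 1324, 6206 and 10340 CPM in tumour-bearing and 821, 1255 and 1754 CPM in healthy libraries (1.89 ± 0.418, adjusted p = 0.237), and a difference of 0.79 without those cells (adjusted p = 0.937). The summed macrophage markers outside the gate had a median of 9024 CPM in tumour-bearing and 5065 CPM in healthy libraries, with overlapping ranges, and their part in these differences was not tested.

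Genes of the neutrophil side were uncalled as well, although some alternatives called them. The neutrophil-marked cells had a median calprotectin share of 3.13, 3.09 and 3.43% in tumour-bearing libraries of days 7, 14 and 21. In healthy libraries it was 1.72, 1.64 and 1.99%, lower on each day. How far this went with the genes below was not tested. Stfa2 and Stfa2l1 encode stefin A cysteine protease inhibitors that share sequence, so their UMIs may be split between copies. Stfa2 had 50 UMIs in tumour-bearing and 1 UMI in healthy libraries (adjusted p = 0.224), and Stfa2l1 had 687, 830 and 1082 CPM in tumour-bearing and 274, 45 and 278 CPM in healthy libraries (2.01 ± 0.445, adjusted p = 0.237). Wfdc17, which encodes a small secreted protein of activated myeloid cells, had 717, 570 and 450 CPM in tumour-bearing and 49, 224 and 149 CPM in healthy libraries (2.30 ± 0.521, adjusted p = 0.237). Wfdc17 was called under 7 alternatives, among them thinning to 1000 UMIs per cell (2.68, adjusted p = 0.0194) and no calprotectin limit (4.34, adjusted p = 0.00235), Stfa2 under 5 and Stfa2l1 under 3. On the lower side, Ccl9, a chemokine gene neighbouring Ccl6, had 662, 398 and 383 CPM in tumour-bearing and 957, 1748 and 1437 CPM in healthy libraries (-1.44 ± 0.377, adjusted p = 0.377). Ly6e (-1.84) and Pf4 (-2.20) had the same adjusted p, and Mx1, an interferon-induced antiviral gene, had 1 UMI in tumour-bearing and 37 UMIs in healthy libraries (adjusted p = 0.491).

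Across the 17 gene lists Ccl6 was the 1 member called, and no list was tested as a set. Of 8 chemokines tested 1 was higher in tumour-bearing libraries, with a median log2 difference of -1.37. Of 8 interferon response genes tested 0 had a higher value in tumour-bearing libraries and their median log2 difference was -1.02, against -0.0017 over all genes; none was called. Of 6 class II antigen presentation genes 0 were higher, with a median of -1.32, and none was called. In the tumour-bearing library of day 21 H2-Aa and H2-Eb1 were at 0 CPM and Cd74 at 16.65 CPM. There 1 cell held 58.9% of the gated UMIs. All 13 immediate early and heat shock genes tested were higher, with a median of 0.34, and none was called.

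**Figure D4:**
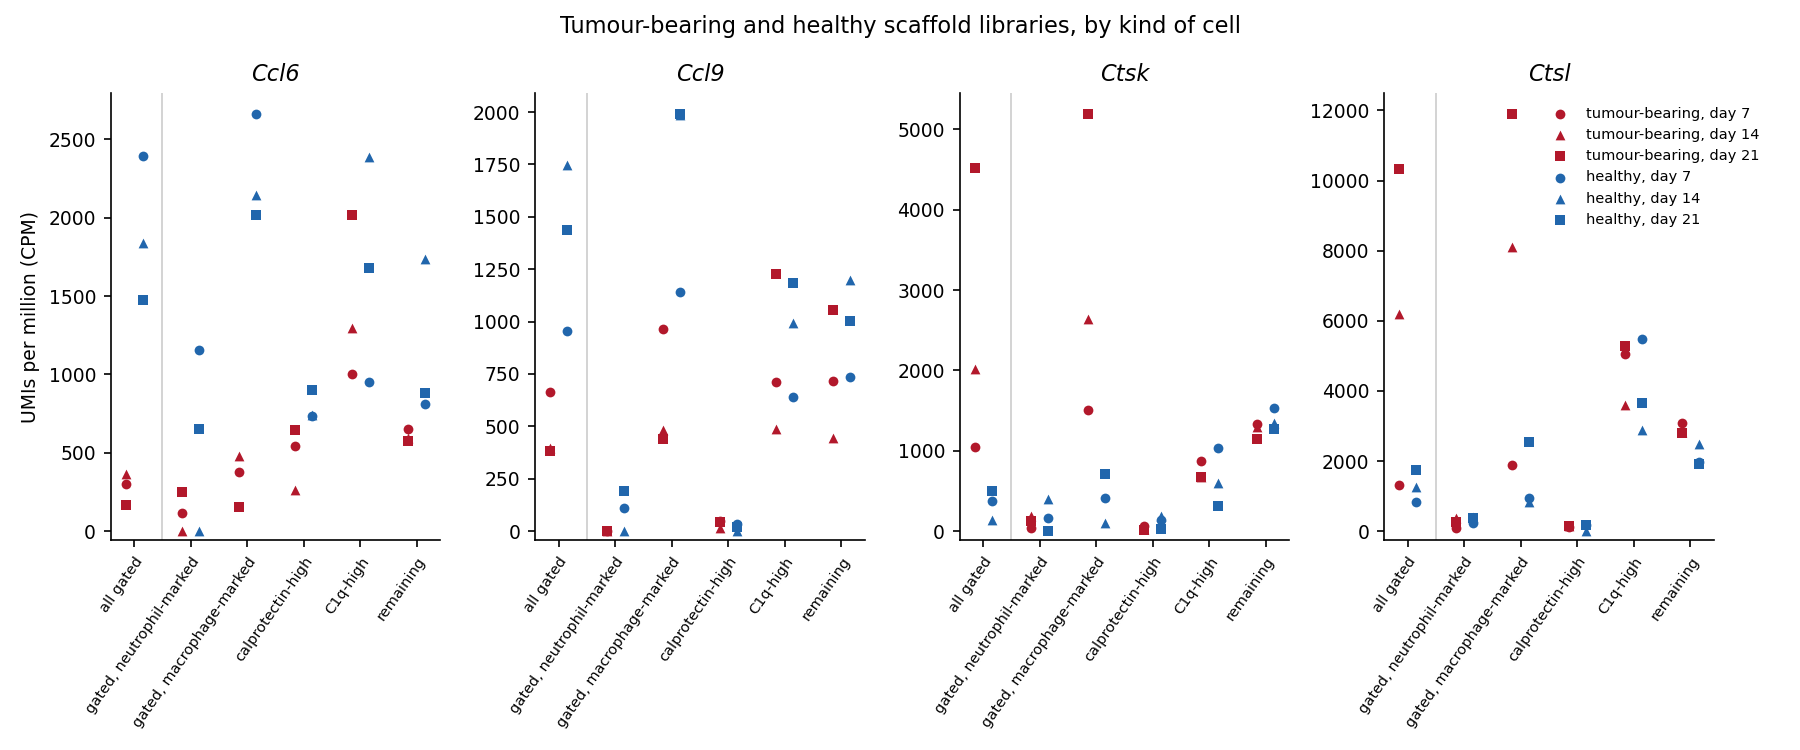
CPM (vertical) of Ccl6, Ccl9, Ctsk and Ctsl in all gated cells, in neutrophil-marked and macrophage-marked gated cells and in the other classes of scaffold cell. Each point is a library, red for tumour-bearing and blue for healthy, with the day as shape. Ccl6 in gated cells lies at 167 to 363 CPM in tumour-bearing and 1477 to 2393 CPM in healthy libraries, and the highest Ctsk and Ctsl points, of tumour-bearing day 21, rest on 4 macrophage-marked cells.

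The gated cells were next set against the other classes of scaffold cell, summed per library: 1046 calprotectin-high cells, 1690 C1q-high cells and 4136 remaining cells. Each gated sum pooled neutrophil-marked and macrophage-marked cells, so genes named together need not come from the same cells. The kinds were not tested apart. The dendritic cell list, which holds H2-Aa and H2-Ab1, had medians of 93.8 and 110 CPM in neutrophil-marked cells of tumour-bearing and healthy libraries. In macrophage-marked cells the medians were 540 and 1255 CPM, and the kinds overlapped in tumour-bearing libraries. The classes were cut on calprotectin, C1q and Irg1, so genes that travel with those transcripts had to differ; the 10 gate genes were left out of the tests and the counts describe composition. Against calprotectin-high cells, 1486 of 2617 genes (56.8%) differed, 843 (32.2%) higher and 643 (24.6%) lower in gated cells. Without the replicate block 744 genes were called. With every cell above 1000 UMIs thinned to 1000 before summing, 353 of 913 genes were called, 189 higher and 164 lower. With RLE in place of TMM scaling 70% of 1560 calls were higher, against 56.7% of calls with TMM, and the median log2 difference over all genes was 0.492, against 0.095.

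Pdpn, which encodes podoplanin, averaged 181 ± 112 CPM in gated cells and 0.166 ± 0.405 CPM in calprotectin-high cells (SD, n = 6 each), a log2 difference of 7.25 ± 0.858 (edgeR adjusted p = 1.01e-12). Mmp12, macrophage elastase, rose by 5.05 on the log2 scale, and Mmp14, a membrane collagenase, by 5.47; of 10 matrix remodelling genes 6 rose and 3 fell, Adam8, Mmp8 and Mmp9. Prdx1, an antioxidant enzyme, rose by 5.07, Cd200 by 5.69 and F7, coagulation factor VII, by 5.50. Cxcl14 had 82 UMIs in gated cells and 0 in calprotectin-high cells, at least 69.5-fold higher against the floor of 3 UMIs over the class. It passed the count filter through the gated cells alone, so its rise is a description. All 6 tested genes of class II antigen presentation rose, with a median of 3.01, and Cd74, the class II invariant chain, by 2.78. Of 12 oxidative stress genes 6 rose and 0 fell (median 0.80). Of 9 myeloid survival genes 3 rose and 5 fell (median -1.10), against 32.2% of all genes higher and 24.6% lower. Those that rose were Bcl2a1a, Bcl2a1b and Bcl2a1d, which are near-identical copies, and those that fell were Bcl2l11, Cflar, Gadd45a, Mcl1 and Pim1. With deep cells thinned as above, 1 of 5 tested rose, Bcl2a1b, and 1 fell, Pim1, counts too small to set against the share over all genes.

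Granule genes were among those that fell. Retnlg, which encodes a resistin-like secreted protein of neutrophils, averaged 211 ± 365 CPM in gated cells and 4290 ± 4810 CPM in calprotectin-high cells and fell by 5.20 ± 0.421 on the log2 scale (edgeR adjusted p = 4.86e-22, lower in 6 of 6 libraries). Lcn2, an iron-sequestering granule protein, fell by 4.33. Camp, the cathelicidin precursor, fell by 6.52 but was lower in only 3 of 6 libraries. Its level in calprotectin-high cells was 2391 and 1702 CPM in tumour-bearing libraries of days 14 and 21, and 0 to 11 CPM in the others. Of 12 granule genes 8 fell, and the 2 that rose were Cybb and Lyz2, which macrophages also express. Cxcr2, the receptor for Cxcl2, fell by 3.30. Of 17 NF-kappaB genes 10 fell and 0 rose (median -1.14). With every cell above 1000 UMIs thinned to 1000, 0 of 9 tested fell or rose (median -0.02). Of all 913 genes tested with that thinning, 164 fell and 189 rose. With so few genes in a list, such counts cannot be told from the share over all genes. Of 10 interleukin 1 genes 6 fell and Pycard rose, and with thinning 2 of 8 fell, Il1b and Il1r2.

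Some of these values changed when deep cells were thinned as above. Thinning also lowered the weight of the macrophage-marked cells, which were the deeper ones. Whether depth or the mixture of cells moved the values was not tested. Il1b fell by 2.41 against calprotectin-high cells, but by 0.999 with that thinning. Cxcl2 fell by 1.33 (adjusted p = 0.000282), and with the same thinning the difference was -0.00051 (adjusted p = 0.999). Retnlg and Lcn2 stayed lower with thinning, at -3.82 and -2.74.

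Against C1q-high cells, the complement-rich macrophage class, 887 of 6875 genes (12.9%) differed, 430 (6.25%) higher and 457 (6.65%) lower in gated cells. Without the replicate block 460 genes were called, and without the tumour-bearing library of day 7 547 were. Il1b averaged 3452 CPM in gated cells and 106 CPM in C1q-high cells and rose by 4.80 ± 0.226 on the log2 scale (edgeR adjusted p = 3.34e-47, higher in 6 of 6 libraries). Cxcl2 rose by 3.26, and Il1r2, the decoy receptor for interleukin 1, by 5.55. Ptgs2, the enzyme that starts prostaglandin synthesis, rose by 5.42, and Hdc, which makes histamine, by 5.87. Mrgpra2b, a receptor gene of neutrophils, rose by 6.49, and Chi3l1 by 6.09.

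The lists read the same way in this comparison. Of 19 NF-kappaB genes 13 rose and 0 fell, with a median of 1.46 against -0.16 over all genes. Tnf rose by 2.52, Nfkbia, the inhibitor that NF-kappaB induces, by 2.07, Nfkbid by 2.14 and Icam1 by 2.20. Of 12 interleukin 1 genes 8 rose and 0 fell (median 2.23), among them Nlrp3, the inflammasome sensor, by 2.81 and Il1rn, the natural antagonist, by 1.43. Of 13 receptors for microbes and damage 10 rose and 0 fell (median 1.79), among them Trem1 by 4.95, Fpr1 by 4.40 and Clec4e, the lectin Mincle, by 3.28. Of 17 interferon response genes 8 rose and 0 fell (median 1.11), with Slfn4 at 4.00 (higher in 6 of 6 libraries) and Rsad2 at 2.71 (higher in 5 of 6). Slc7a11, the cystine transporter of the oxidative stress list, rose by 4.12.

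The chemokines split. Ccl3 rose by 2.41 and Ccl4 by 2.50, both ligands that draw monocytes and lymphocytes, and Cxcl3 by 4.87. Ccl2 fell by 1.90, Ccl7 by 4.16 and Ccl6 by 1.08. Of the 14 chemokines tested 6 rose and 4 fell. Of 10 class II genes 5 fell and 0 rose (median -0.75), with H2-Aa at -1.46; the calls of H2-Aa, H2-Ab1, H2-Eb1 and Cd74 were lost in 2 of 20 alternatives each. Arg1, arginase 1, fell by 3.71 and Hpgds, a prostaglandin D synthase, by 4.34. Among genes at 0 UMIs in the gate, Pcp4l1 had 246 and Nrcam 210 UMIs in C1q-high cells, at least 6.47-fold and 5.52-fold lower against the floor of 3 UMIs over the gate. Both passed the count filter through the C1q-high cells alone, so their falls are descriptions.

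**Figure D5:**
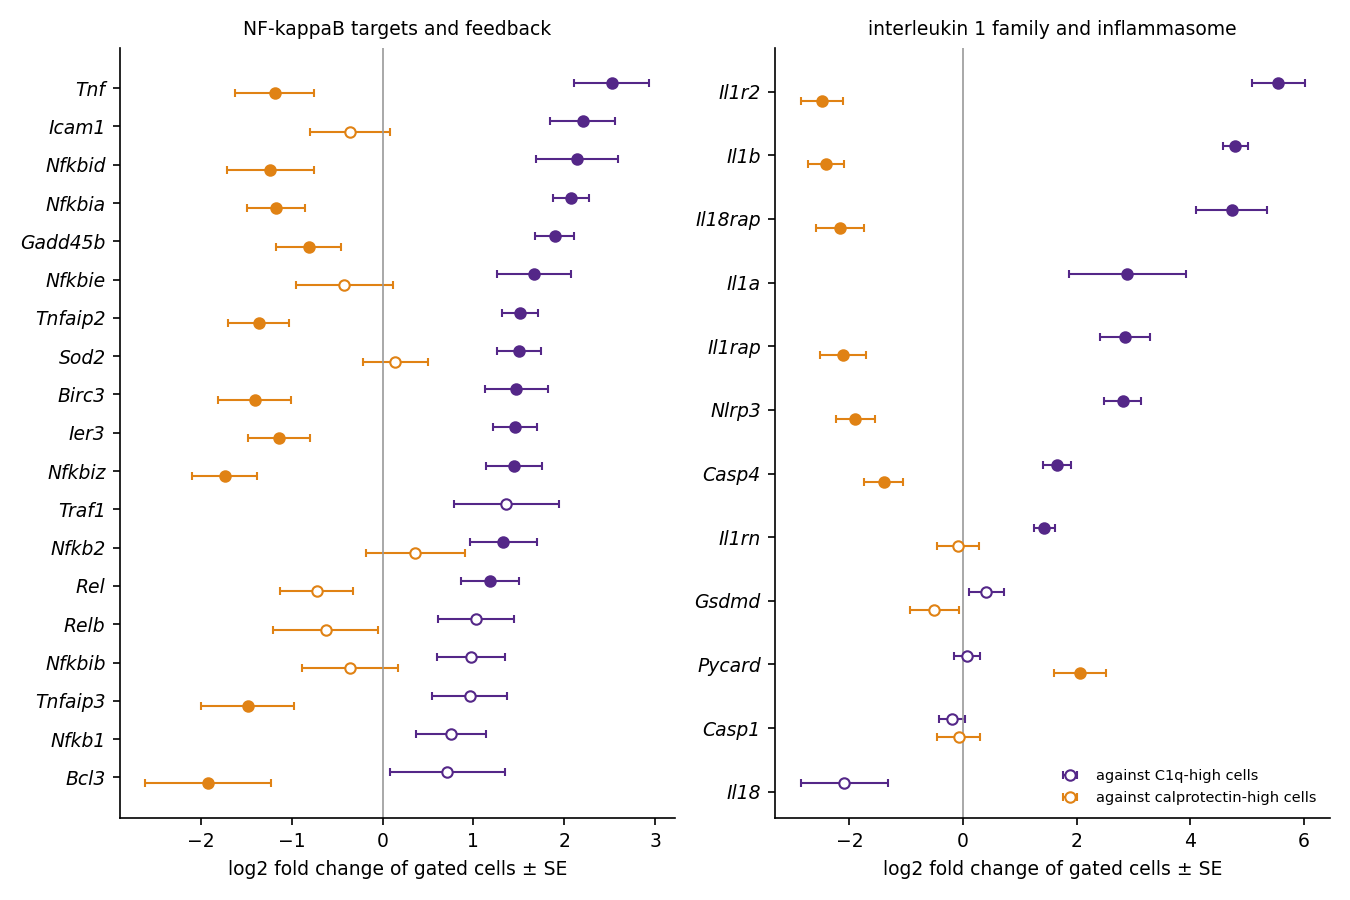
Log2 fold change (horizontal, ± SE) of gated cells against C1q-high cells (purple) and calprotectin-high cells (orange) for the NF-kappaB and interleukin 1 lists, over 6 libraries. Filled points passed an adjusted p of 0.05. Of 19 NF-kappaB genes 13 rose against C1q-high cells, and of 17 tested 10 fell against calprotectin-high cells. With deep cells thinned to 1000 UMIs 0 of 9 fell, against 164 of all 913 genes tested. Macrophage-marked cells hold 73.4% of the gated UMIs in the sums before thinning.

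Against the remaining cells, a mixture without high calprotectin or C1q, 598 of 7818 genes (7.65%) differed, 262 (3.35%) higher and 336 (4.3%) lower in gated cells. Without the replicate block 194 genes were called, 81.4% of them higher, against 43.8% of calls with the block; with RLE scaling 55.7% were higher. Without the healthy library of day 21 391 genes were called. Mrgpra2b averaged 199 ± 101 CPM in gated cells and 3.95 ± 2.34 CPM in the remaining cells and rose by 5.56 ± 0.401 (edgeR adjusted p = 3.41e-40). G0s2, a regulator of fat breakdown that marks neutrophils, rose by 3.83, Hdc by 3.39 and Trem1 by 3.34. Il1b rose by 2.42, Cxcl2 by 2.66, Ccl3 by 2.81 and Ccl4 by 2.58. Of 18 interferon response genes 11 rose and 0 fell (median 1.49 against -0.20 over all genes), with Slfn4 at 2.89, Rsad2 at 2.53 and Ifit1 at 2.41. Slfn4 was higher in 6 of 6 libraries, but Rsad2 and Ifit1 in 4 of 6. Rsad2 stood at 0 and 16.65 CPM in gated cells of healthy day 14 and tumour-bearing day 21, and at 1090 CPM in healthy day 21. Of 19 NF-kappaB genes 10 rose and 0 fell (median 1.00), and of 12 interleukin 1 genes 8 rose and 0 fell (median 1.71).

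Matrix genes of fibroblasts were among those that fell most against the remaining cells. Dcn, the matrix proteoglycan decorin, had 0 UMIs in gated cells and 2976 in the remaining cells, at least 67.7-fold lower against the floor of 3 UMIs over the gate. Dpt had 0 against 1462 UMIs, at least 33.2-fold lower, and Clec3b, Serping1, Fbn1, C1s, Timp3 and Cd55 were likewise at 0 UMIs in the gate. Genes at 0 UMIs in the gate passed the count filter through the remaining cells alone, so these falls describe which cells that class held. Ccr2, the receptor that monocytes use to leave the blood, fell by 1.14, and Ccl2, its ligand, by 1.83. Of 10 class II genes 4 fell and 0 rose (median -0.35). Of the oxidative stress list 8 of 13 rose, among them Prdx1 by 0.72 and Slc7a11 by 1.95, and the metallothioneins Mt1 and Mt2 fell by 0.81 and 1.77.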

How the data were processed

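The deposited tables hold UMI counts per gene and barcode, made by the authors and not normalized; Seurat version 2 and the mm10 build are named in the submitters' processing notes, while for aligner and barcode filter the answer is: not given in the sources used here. Each table lists 22049 genes. Barcodes with 200 or more genes and under 20% mitochondrial UMIs were kept, and a barcode shared by libraries of a day stayed only where its UMIs were 5 or more times the next. No doublets were removed. The cells, gene lists and tests were chosen with earlier results of these data known.

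UMIs were summed per class and library and tested with edgeR 4.0.16 (limma 3.58.1, R 4.3.3) by the quasi-likelihood test with TMM scaling, filterByExpr and Benjamini-Hochberg adjusted p under 0.05, with the day or the library as block, in libraries with 10 or more cells of the class; DESeq2 1.42.0 was an alternative. The smallest gated sum held 22309 UMIs. The calprotectin-high class of the healthy day 14 library held only 14 cells. Bcl2a1d at 185.1 CPM was among its lowest values above 0, so a 0 there says little. The 10 gate genes were not tested. Shares were compared by exact permutation (scipy 1.17.1, Python 3.11.15, numpy 2.4.6, pandas 2.3.3), with exact Clopper-Pearson intervals. The test was checked on simulated data. Days pair the libraries by the labels; same-day libraries deviated together with r of 0.11, 0.045 and -0.015 on days 7, 14 and 21. Named genes are the 8 with the largest called change each way that moved alike in every pair, up to 4 called members of a list, the gate genes and, inside the gate, the 5 smallest p each way; Ccr2, Cd200, Pycard, Cybb and other members beyond it were chosen after their values were seen. Lungs and spleens were used for shared barcodes and for shares only. Some items are not reported here.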

Additional observations from a re-analysis of the deposited data

Results flagged for a closer look

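The share of gated cells in scaffolds differed between the statuses in opposite directions on different days: tumour-bearing minus healthy was 2.2 points at day 7, 2.48 points at day 14 and -3.39 points at day 21. With 1 library for each status and day, this difference between days was not tested.

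The same gate found cells in the other tissues of tumour-bearing mice. In lung it held 21 of 4213 kept cells of tumour-bearing mice (0.498%, exact Clopper-Pearson 95% interval 0.309 to 0.761%). In lungs of healthy mice it held 2 of 1892 cells (0.106%, interval 0.0128 to 0.381%). In spleen it held 13 of 5081 kept cells of tumour-bearing mice (0.256%, interval 0.136 to 0.437%). In spleens of healthy mice it held 1 of 1493 cells (0.067%, interval 0.0017 to 0.373%). The intervals of the statuses overlapped in both tissues. Day 7 gave most of these cells: 15 of 21 in lung and 10 of 13 in spleen. Without day 7 the gate held 6 of 3284 cells (0.183%) in lungs of tumour-bearing mice, against 1 of 1305 (0.0766%) in healthy mice. In spleen it held 3 of 4063 cells (0.0738%) of tumour-bearing mice, against 1 of 1162 (0.0861%) of healthy mice. The order in spleen was then the reverse, but the healthy value rested on 1 cell. Cells of the libraries of a tissue and status were pooled for each value, and the intervals cover counting error only.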

How the results depend on the processing

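The difference in share, 0.431 points, kept its value with the replicate block and ranged from -0.593 to 2.34 without 1 day; it was -0.303 with cells thinned to 500 UMIs and -0.088 with calprotectin under 2%. The 10% limit, no limit, thinning to 1000 UMIs and leaving out the deepest gated cell of each library were chosen after seeing the data. Inside the gate, the 1 called gene became 2 with Irg1 alone, 0 with calprotectin under 2%, 7 with no C1q UMI, 4 without the deepest 1% of barcodes, 4 with thinning to 1000 UMIs, 0 without the deepest cells, 9 with the 10% limit, 11 with no limit, 20 with no count filter and 3 with DESeq2; it was 1 without the replicate block and 1 to 20 without 1 day. Irg1 of 2 UMIs or more was not run there, since too few libraries held 10 cells. Against calprotectin-high cells, 1486 calls became 835 with Irg1 of 2 UMIs or more, 353 with thinning, 744 without the replicate block and 1125 to 1482 without 1 library. Against C1q-high cells, 887 became 519 at 400 genes per barcode, 573 with calprotectin under 2%, 460 without the replicate block and 547 to 896 without 1 library; 67.9% of DESeq2 calls and 60.9% with library totals were higher, against 48.5%. Against the remaining cells, 598 became 354 at 400 genes, 398 with Irg1 of 2 UMIs or more, 275 with calprotectin under 2%, 1089 with thinning, 194 without the replicate block and 391 to 607 without 1 library. With calprotectin under 2% Btg2 against C1q-high cells was -0.0256 and, against the remaining cells, Mmp8 -0.0772 and Ngp -0.68; Arg1 was 1.18 with Irg1 alone and Spp1 -0.383 with Irg1 of 2 UMIs or more. The causes were not tested. Few cells in a library, 14 to 74, limit what the comparison inside the gate can show.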
